A study of Urocitellus parryii with 44 samples.

Results

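The transcripts described here encode 8 genes of lower glycolysis and lactate dehydrogenase, measured in brown adipose tissue of arctic ground squirrels by 15 of the 38400 cDNA probes of the series. The members were taken by name: every probe whose single annotated symbol was Hk2, Aldoa, Tpi1, Gapdh, Pgk1, Pgam1, Eno1, Eno3, Ldha or Ldhb. Aldoa and Pgk1 had 3 probes each, Tpi1, Eno3 and Ldhb 2 each, and Gapdh, Pgam1 and Ldha 1 each. No probe carried Hk2 or Eno1 as its single symbol, so these genes were not analysed here. A further 4 probes that list a member symbol beside a second symbol were left out.

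The groups were winter torpid squirrels (5 animals) and summer active squirrels taken in August (3 animals). Both groups are of the same species and tissue, and neither age nor sex is given for them. Total RNA labelled with 33P was hybridised to 4 membranes of mouse cDNA (MA07, MA08, MA10 and MA11), each with 9600 probes, and the RNA of torpid animal 5 and summer animals 1 and 2 was split and measured as a pair. Season and metabolic state cannot be told apart in this design. In bulk tissue, fewer cells of a type and less RNA per cell cannot be told apart either. All values below are spot intensities as multiples of the column median, and differences are log2 values of torpor minus summer.

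Glycolysis turns glucose into pyruvate in the cytosol, and lactate dehydrogenase interconverts pyruvate and lactate while it recycles NADH. The lactate dehydrogenase enzyme is a tetramer of subunits A (Ldha, the muscle type) and B (Ldhb, the heart type), and tissues differ in their ratio. Several glycolytic steps likewise have isoforms: Eno3 is the enolase of striated muscle, and Aldoa is the aldolase that predominates in muscle and many other tissues. Brown fat takes up glucose and burns mainly fatty acids, and hibernators are known to rely on fat during torpor.

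None of the 15 probes passed an adjusted p of 0.05 by limma, where 0.309% of the 37848 tested probes of the series passed. At an unadjusted p under 0.05, 4 probes were higher in torpor, of Ldhb, Gapdh, Ldha and Pgk1, where 6.39% of all tested probes were. Another 2 were lower in torpor, of Aldoa and Eno3, where 5.18% of all tested probes were. The median difference over the 15 probes was 0.13, against 6.5e-05 over all tested probes, and 9 of the 15 were positive. The values ran from -2.19 for an Eno3 probe to 2.06 for an Ldhb probe, so that members of the same pathway stood on both sides of 0. Torpid animals all lay above summer animals in 2 probes, of Ldha and Pgk1, as in 4.37% of all tested probes, and all below them in 0 probes, as in 4.13%.

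**Figure D1:**
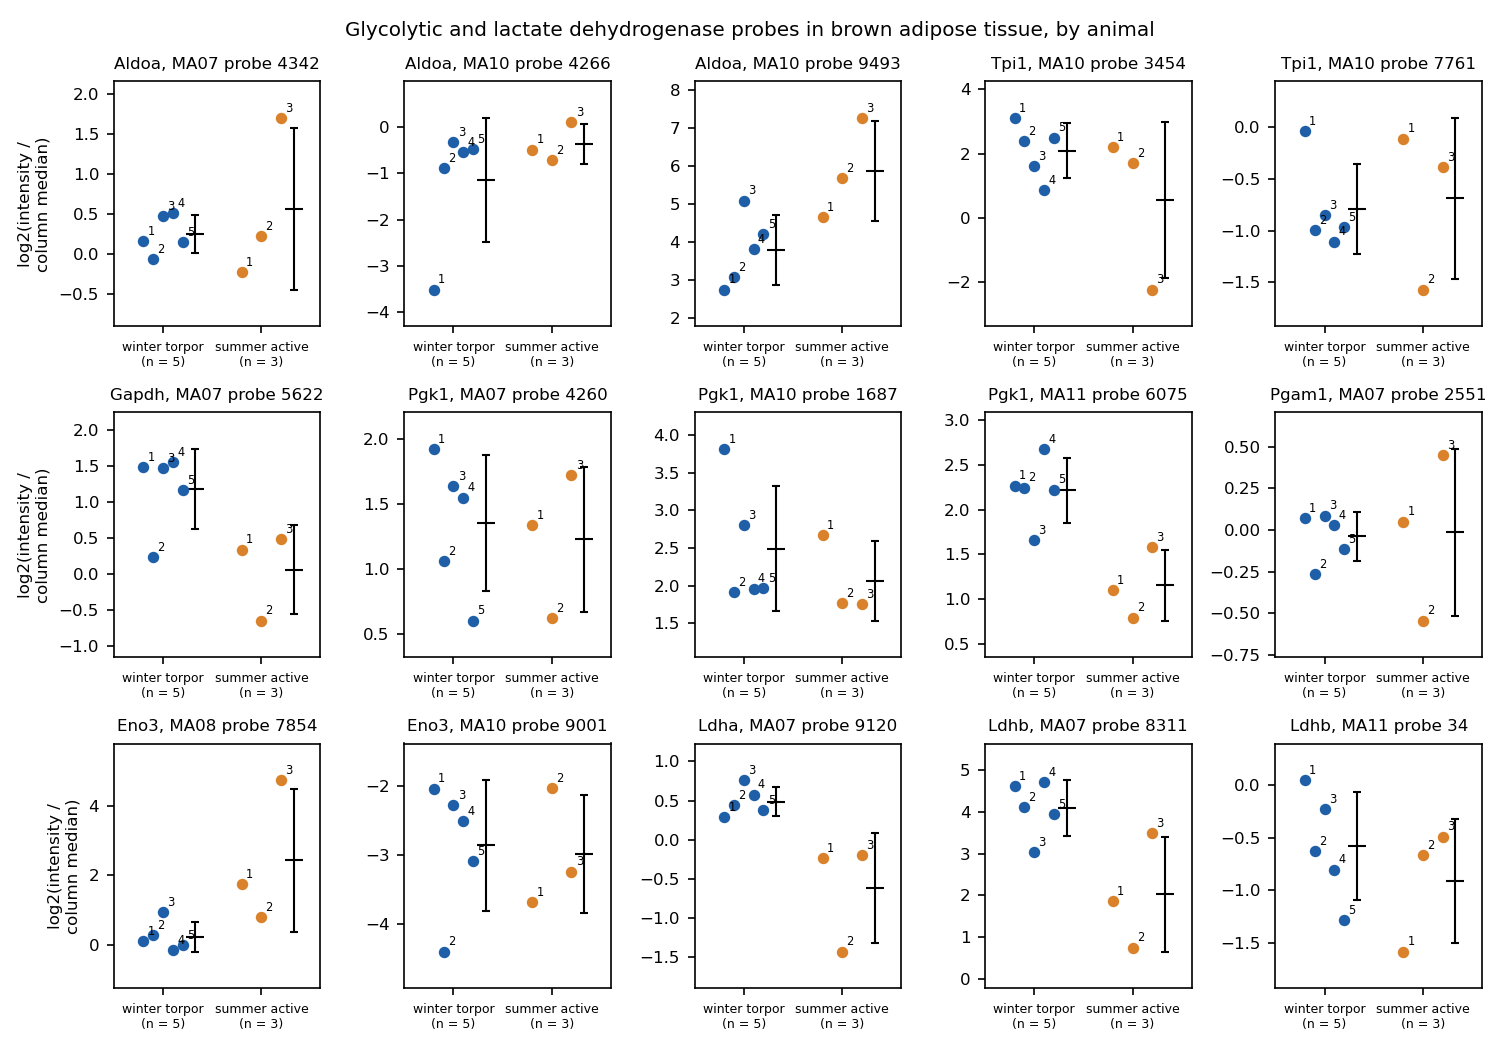
Log2 of intensity over the column median for each of the 15 probes (y axis), with 1 point per animal, numbered as in the labels, for winter torpor (left, n = 5) and summer active (right, n = 3); bars are mean ± SD. The groups are fully apart for Ldha on MA07 and Pgk1 probe 6075 on MA11, and summer animal 3 is the highest animal for Aldoa on all 3 probes and for Eno3 on MA08.

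**Figure D2:**
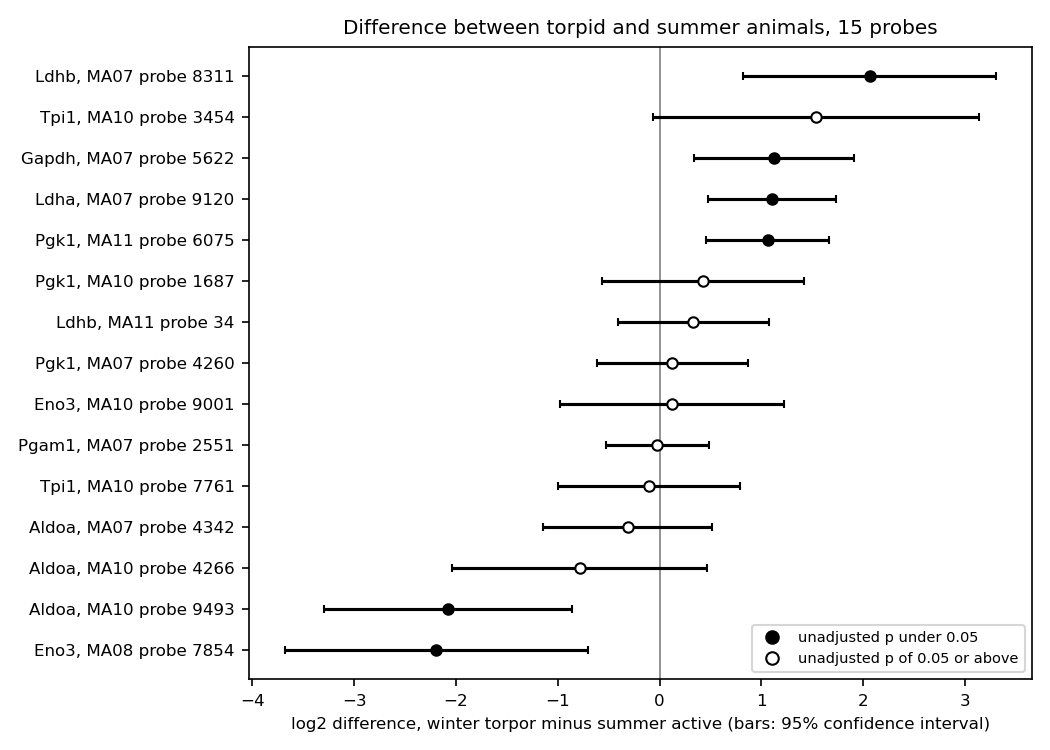
Log2 difference of winter torpor minus summer active (x axis) for each probe, with 95% confidence intervals from limma; filled points have an unadjusted p under 0.05. Ldhb probe 8311 is at 2.06 at the top and Eno3 probe 7854 at -2.19 at the bottom, and probes of the same gene often stand far apart.

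Lactate dehydrogenase subunits had higher values in torpor on membrane MA07. Ldha (probe 9120) stood at 1.22, 1.35, 1.69, 1.49 and 1.30 times the column median in torpid animals 1 to 5, against 0.852, 0.371 and 0.869 in summer animals 1 to 3. The lowest torpid animal was above the highest summer animal, and summer animal 2 was lowest of all. The Ldha difference was 1.11 ± 0.28 (SE, 95% interval 0.48 to 1.74), which is 2.15-fold, with an adjusted p of 0.17 by limma. Without summer animal 2 the Ldha difference was 0.70.

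Ldhb on the same membrane (probe 8311, among the brightest at signal percentile 98.6) stood at 24.6, 17.4, 8.23, 26.3 and 15.5 times the median in torpid animals, against 3.61, 1.68 and 11.2 in summer animals. The groups overlapped, because summer animal 3 was above torpid animal 3. The Ldhb difference was 2.06 ± 0.56 (SE, 95% interval 0.82 to 3.31), which is 4.18-fold, with an adjusted p of 0.20 by limma. Without summer animal 3 it was 2.79, with an adjusted p of 0.041 by limma, and without summer animal 2 it was 1.42, with an adjusted p of 0.26.

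The other Ldhb probe did not show a difference of this size. On MA11 (probe 34, signal percentile 30.0), Ldhb stood at 1.03, 0.645, 0.854, 0.572 and 0.410 times the median in torpid animals, against 0.334, 0.630 and 0.712 in summer animals. The groups overlapped widely, with torpid animal 5 below summer animals 2 and 3. The difference was 0.33 ± 0.34 (SE), with a 95% interval of -0.41 to 1.07. That interval does not reach the value of the MA07 probe, 2.06, but overlaps the MA07 probe's own interval of 0.82 to 3.31.

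The isoforms were contrasted by subtracting, in each animal, the deviation of Ldha from its mean over the 8 animals from that of Ldhb. With both Ldhb probes averaged, this contrast was 0.03 ± 0.52 in torpid animals and -0.06 ± 0.71 in summer animals (SD, n = 5 and 3). The difference between the groups was 0.09 (95% interval -1.05 to 1.28, from inverting the test), with p = 0.84 by a two-sided exact permutation test over the 56 divisions of the animals, whose smallest possible p is 0.0179. With the brighter Ldhb probe alone it was 0.36 ± 0.80 in torpid animals and -0.60 ± 0.90 in summer animals (SD, n = 5 and 3). That difference was 0.96 (95% interval -0.83 to 2.25), with an exact permutation p of 0.18. Neither version passed the test. Both intervals reach beyond 1 log2 unit in the direction of Ldhb, and that with both Ldhb probes averaged also does in the direction of Ldha. Equal differences of the subunits are thus not shown. Mouse cDNA clones can bind related transcripts such as those of the 2 subunits, and the extent of this was not tested.

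**Figure D3:**
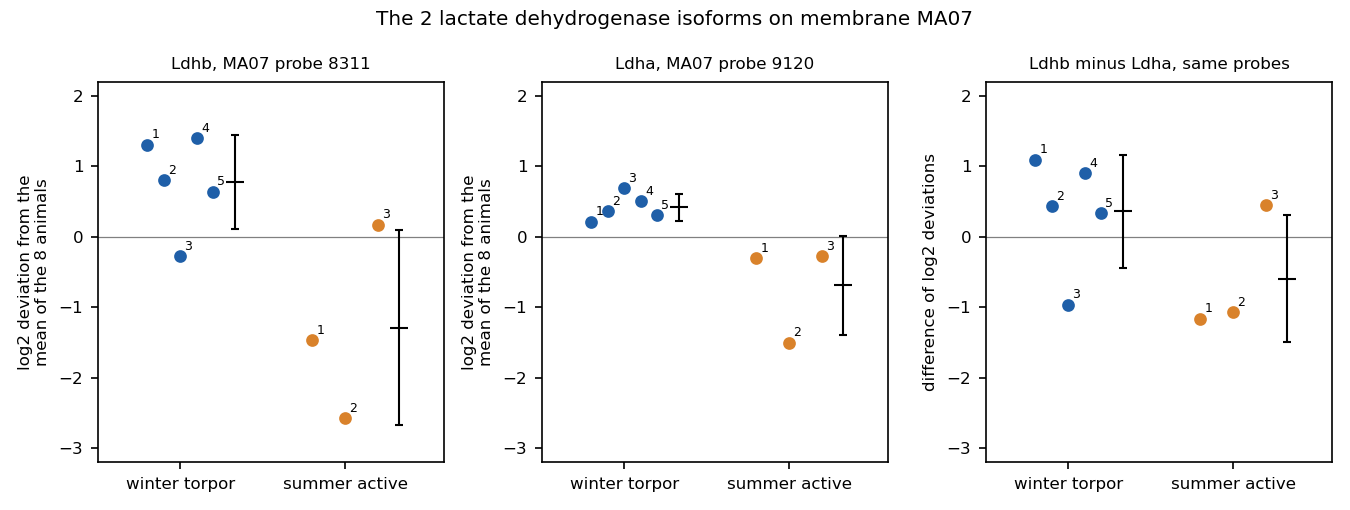
Log2 deviation of Ldhb (left panel) and Ldha (middle panel) from the mean of the 8 animals, and their difference in each animal (right panel), for winter torpor (left in each panel) and summer active; points are numbered animals and bars are mean ± SD (n = 5 and 3). Ldha separates the groups, whereas the difference between the isoforms overlaps, with torpid animal 3 at -0.96 and summer animal 3 at 0.44.

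Gapdh, which oxidises glyceraldehyde 3-phosphate and reduces NAD+, was also at higher values in torpor. On MA07 (probe 5622) it stood at 2.80, 1.17, 2.77, 2.94 and 2.25 times the median in torpid animals, against 1.27, 0.640 and 1.40 in summer animals. Torpid animal 2 was within the summer range, and the other 4 torpid animals were above it. The difference was 1.12 ± 0.35 (SE), which is 2.17-fold, with an adjusted p of 0.26 by limma, and it was 0.77 without summer animal 2, with an unadjusted p of 0.0517. Gapdh has many processed pseudogenes in rodents, which this probe could share sequence with.

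Pgk1, the kinase that makes the first ATP of the lower pathway, had probes on 3 membranes. On MA11 (probe 6075) it stood at 4.82, 4.74, 3.16, 6.38 and 4.67 times the median in torpid animals, against 2.14, 1.73 and 2.98 in summer animals. No torpid animal was as low as any summer animal. The difference was 1.06 ± 0.28 (SE, 95% interval 0.46 to 1.66), which is 2.09-fold, with an adjusted p of 0.16 by limma. It was 0.72 after cyclic loess scaling. With all columns in the fit and the animal as a random block, it was 1.13, with an adjusted p of 0.040.

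The same Pgk1 clone is also spotted on MA10 (probe 1687), which offers a direct technical comparison. There Pgk1 stood at 14.0, 3.76, 7.01, 3.89 and 3.92 times the median in torpid animals, against 6.39, 3.41 and 3.37 in summer animals. Torpid animals 2, 4 and 5, high on MA11, were within the summer range on MA10. The MA10 difference was 0.43 ± 0.47 (SE), which was 0.097 without torpid animal 1. That of the third Pgk1 probe, on MA07 (probe 4260), was 0.13 ± 0.33 (SE), and both intervals spanned 0 (-0.56 to 1.42 and -0.61 to 0.87).

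Tpi1, which interconverts the triose phosphates, had 2 probes on MA10. The brighter one (probe 3454) stood at 8.54, 5.25, 3.05, 1.83 and 5.64 times the median in torpid animals, against 4.56, 3.28 and 0.214 in summer animals. The low value of summer animal 3 set the difference, which was 1.53 ± 0.76 (SE) with all animals, 0.14 without that animal and 2.35 without summer animal 1. The other Tpi1 probe (probe 7761) gave -0.10 ± 0.42 (SE). Pgam1, the phosphoglycerate mutase of most tissues, gave -0.02 ± 0.23 (SE, 95% interval -0.53 to 0.48). Its torpid animals lay between 0.833 and 1.06 times the median, within the summer range of 0.687 to 1.36.

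Aldoa, the aldolase that splits fructose 1,6-bisphosphate, had lower values in torpor on its brightest probe. On MA10 (probe 9493, signal percentile 98.1) it stood at 6.71, 8.38, 34.0, 14.0 and 18.4 times the median in torpid animals, against 25.1, 51.3 and 153 in summer animals. Torpid animal 3 was above summer animal 1, and the other 4 torpid animals were below all summer animals. The difference was -2.08 ± 0.58 (SE, 95% interval -3.30 to -0.86), 4.23-fold lower in torpor, with an adjusted p of 0.16 by limma.

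This Aldoa value varied with the animals and with the split RNA. It was -1.38 (adjusted p = 0.44 by limma) without summer animal 3 and -2.69 (adjusted p = 0.048) without summer animal 1. The pair of measurements of summer animal 1 from 1 RNA gave 9.58 and 65.8 times the median, a 6.87-fold gap, and those of summer animal 2 gave 81.6 and 32.3. The probe's difference was -1.74 with the first measurement of each pair and -2.43 with the second. Over all probes, the median absolute log2 gap between paired measurements ran from 0.234 to 0.871 across membranes and animals, and was widest on MA10 in summer animal 1.

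The other Aldoa probes gave smaller differences. On MA07 (probe 4342) torpid animals lay between 0.957 and 1.42 times the median, against 0.852, 1.16 and 3.24 in summer animals, with a difference of -0.31 ± 0.37 (SE) that was 0.25 without summer animal 3. The dimmer MA10 probe (probe 4266) gave -0.78 ± 0.59 (SE), with torpid animal 1 at 0.0881 times the median against 0.611 or more in every summer animal. Without torpid animal 1 it was -0.19. With all animals the 3 probes were negative, and summer animal 3 was the highest animal on each.

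Eno3, the enolase of striated muscle, had the lowest difference of the 15 probes, on MA08 (probe 7854). It stood at 1.07, 1.21, 1.90, 0.892 and 0.997 times the median in torpid animals, against 3.36, 1.72 and 26.5 in summer animals. Summer animal 3 was far above every other animal, and torpid animal 3 was above summer animal 2. The difference was -2.19 ± 0.68 (SE, 95% interval -3.68 to -0.71), 4.58-fold lower in torpor, with an adjusted p of 0.24 by limma. Without summer animal 3 it was -1.04 (adjusted p = 0.32 by limma). The dim Eno3 probe on MA10 (probe 9001, signal percentile 6.5) gave 0.12 ± 0.52 (SE) and lacked 1 of the paired values of summer animal 1.

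**Figure D4:**
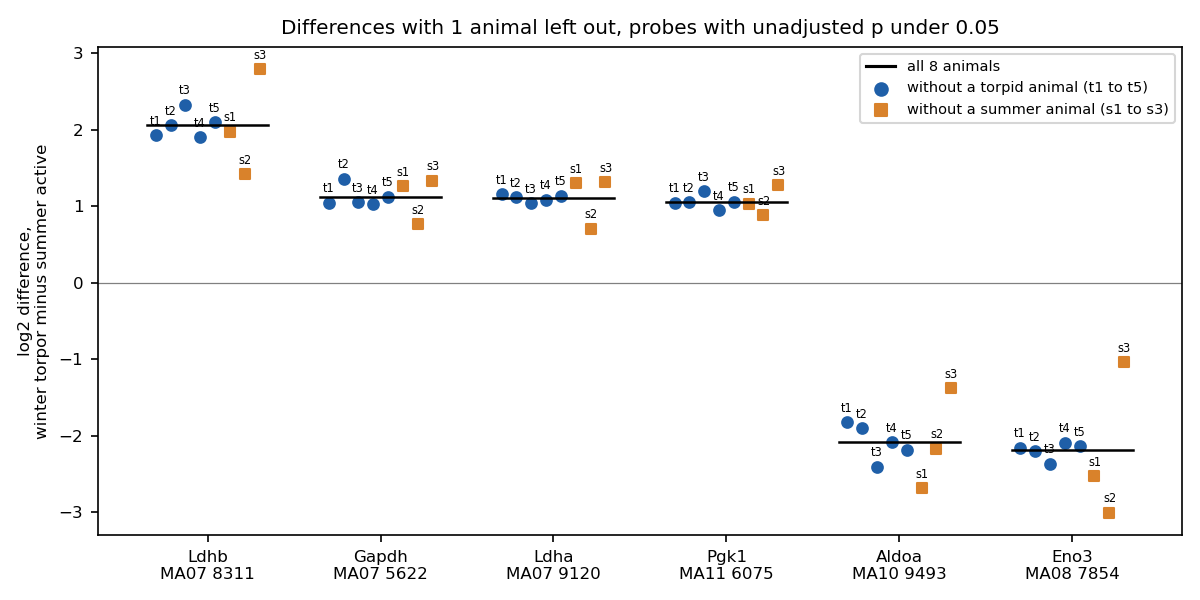
Log2 difference of winter torpor minus summer active (y axis) for the 6 probes with an unadjusted p under 0.05, with all 8 animals (black line) and with each torpid (circles, t1 to t5) or summer animal (squares, s1 to s3) left out. Every value keeps its sign, and the widest moves come with summer animals: Eno3 from MA08 is at -1.04 without summer animal 3 and at -3.01 without summer animal 2.

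Since Aldoa and Eno3 are abundant in skeletal muscle, markers of that tissue were read in the same animals. Of 30 listed muscle genes 16 were measured, by 21 tested probes, and 12 of these probes were highest in summer animal 3, as were 16.9% of all tested probes. The mean log2 deviation of the 21 probes was 0.22, -0.20, 0.20, -0.34 and -0.28 in torpid animals 1 to 5, and -0.03, -0.14 and 0.59 in summer animals 1 to 3. In this mean, torpid animals 1 and 3 were above summer animals 1 and 2. Aldoa probe 9493 was lowest of all in torpid animal 1. Among torpid animals, Aldoa probe 9493 and Eno3 probe 7854 were both highest in torpid animal 3, at 34.0 and 1.90 times the median. Eno3 probe 7854 was lowest in torpid animals 4 and 5, at 0.892 and 0.997, which also had the lowest muscle means. The summed intensity of the 21 probes was 114 to 133 times the median in torpid animals and 159 to 209 in summer animals. Without Tnnc2, a very bright troponin C probe on MA11, the sum was 34.4 to 49.1 in torpid animals and 33.5, 33.3 and 57.5 in summer animals.

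Of the 21 muscle probes, 15 were negative and 6 positive, where 18921 of the 37848 tested probes were negative. The median difference of the muscle probes was -0.35, against 6.5e-05 over all tested probes. An unadjusted p under 0.05 was found for 2 muscle probes, where 11.6% of all tested probes had one, and these 2 stood on opposite sides. Tnnc2 (probe 8453 on MA11) stood at 64.9 to 88.6 times the median in torpid animals, against 126, 135 and 152 in summer animals, with every torpid animal below every summer animal. The Tnnc2 difference was -0.77 ± 0.22 (SE), with an adjusted p of 0.20 by limma. Actn3, the fast-fibre actinin, stood at 5.32 to 12.8 in torpid animals, against 4.74, 6.96 and 2.34 in summer animals on MA11, and summer animal 3 was lowest. The Actn3 difference was 0.97 ± 0.37 (SE), with an adjusted p of 0.34 by limma, while its MA07 probe gave -0.53 ± 0.24 (SE) and was highest in summer animal 3, at 1.01.

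A further 3 muscle genes were chosen after their values were seen, each with both of its probes. Tpm2, a tropomyosin, stood at 1.08 to 5.10 times the median in torpid animals, against 1.86, 1.11 and 11.6 in summer animals (probe 4782 on MA07). Its other probe, on the same membrane, stood at 2.85 to 4.56 in torpid animals, against 3.49, 3.63 and 5.43 in summer animals. Both Tpm2 probes were highest in summer animal 3.

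Casq1, the calcium store protein calsequestrin, stood at 0.146 to 0.398 times the median in torpid animals, against 0.452, 0.320 and 1.31 in summer animals on MA10. On MA11 it stood at 3.01 to 4.38 in torpid animals, against 3.24, 2.53 and 3.37 in summer animals, so that torpid animal 1 was highest there. Ckm, muscle creatine kinase, stood at 0.267 to 0.934 in torpid animals, against 0.554, 0.262 and 1.09 in summer animals on MA11. Its dim MA10 probe had values in only 3 torpid animals, 0.252, 0.199 and 0.145, against 0.142, 0.314 and 0.0689 in summer animals, and summer animal 3 was lowest. Of the 21 probes, 0 passed an adjusted p of 0.05 by limma. Probes of Des, Pygm, Atp2a1 and Ckm had empty cells in some animals, and an absent marker could not be told from one not measured.

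Brown adipocyte, white adipocyte, erythroid and immune markers also had their highest mean deviation in summer animal 3, at 0.22, 0.61, 0.95 and 0.39. Endothelial markers were instead highest in torpid animal 3 (0.36, against 0.0045 in summer animal 3). Nerve markers were highest in torpid animal 2 (0.17, against 0.13 in summer animal 3). The summed intensity of the 12 white adipocyte probes was 27.5 to 47.4 times the median in torpid animals and 65.6 to 95.5 in summer animals. Of these, Agt, which encodes angiotensinogen (probe 5804 on MA10), gave -2.0 ± 0.42 (SE, adjusted p = 0.0548 by limma), and Psat1, an enzyme of serine synthesis (probe 3685 on MA10), gave -1.58 ± 0.43 (SE, adjusted p = 0.15 by limma). Both had every torpid animal below every summer animal, and their other probes gave -0.80 to 0.11. In summer animals 1 to 3 this Agt probe stood at 16.1, 18.8 and 26.8 times the median, and this Psat1 probe at 36.8, 35.3 and 42.8. They made up most of the summer sums, and no other white adipocyte probe exceeded 7.49 in any animal. The remaining white adipocyte genes gave smaller differences: Lep -0.09, Tcf21 0.07, and Nnat -0.29, 0.17 and -0.08. The part of muscle or other cells in the Aldoa and Eno3 values was not tested.

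**Figure D5:**
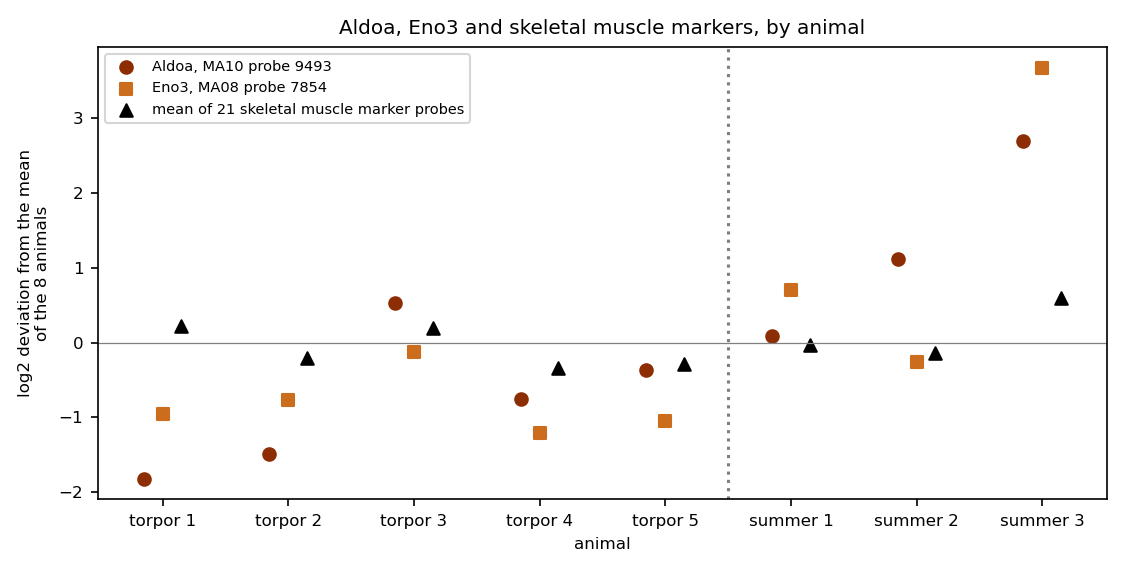
Log2 deviation from the mean of the 8 animals (y axis) for Aldoa on MA10 (circles), Eno3 on MA08 (squares) and the mean of 21 skeletal muscle marker probes (triangles), for torpid animals 1 to 5 (left) and summer animals 1 to 3 (right). All 3 measures are highest in summer animal 3, where the muscle mean is 0.59. The muscle mean is next highest in torpid animal 1, at 0.22, where Aldoa is lowest of the 8 animals. Among torpid animals, Aldoa and Eno3 are highest in torpid animal 3, where the muscle mean is 0.20.

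Against the label of brown fat, 9 of 17 listed adipocyte genes were measured, by 13 probes whose signal is given as a percentile within its membrane. Fabp3, the fatty acid binding protein that brown fat shares with heart, was at 97.9 and 82.2, and Cidea, a lipid droplet protein, at 78.7, 54.7 and 27.1. Ppargc1a, the coactivator of mitochondrial genes, was at 86.0 and 45.6, and Pparg, the adipocyte nuclear receptor, at 81.6. Elovl3, a fatty acid elongase, was at 71.9, and Prdm16, a regulator of brown fat identity, at 58.9. The others were dim: Kcnk3, a potassium channel, at 18.4, Zic1, a transcription factor, at 14.4, and Dio2, the enzyme that activates thyroid hormone, at 7.23. The listed genes thus spanned bright and dim spots. Ucp1, the defining uncoupling protein, was not analysed here.

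The wider set covers the rest of glycolysis, glucose and lactate transport, pyruvate entry and gluconeogenesis. Of 94 tested probes of 44 genes, 47 were positive and 47 negative, with a median of 0.0017, and 0 passed an adjusted p of 0.05 by limma. At an unadjusted p under 0.05, 8 were higher in torpor, where 6.39% of all tested probes were, and 6 were lower, where 5.18% were. The 8 genes with the smallest p were Pygl, Pdhb, Pgm1, Pdk3, Pfkfb3, Pkm, Pdha1 and Pck1.

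Pygl, the liver-type glycogen phosphorylase, stood at 1.81, 1.26, 3.17, 1.88 and 3.96 times the median in torpid animals, against 1.02, 0.989 and 0.672 in summer animals. Every torpid animal was above every summer animal, with a difference of 1.34 ± 0.42 (SE) and an adjusted p of 0.22 by limma on its single probe. Pdhb and Pdha1, the subunits of the pyruvate dehydrogenase that commits pyruvate to the mitochondrion, gave 0.77 ± 0.24 and 0.74 ± 0.29 (SE). Pdhb was 0.46 without summer animal 2, and Pdha1 was 0.42 after cyclic loess scaling. The 3 Pdha1 probes ran from -0.10 to 0.74. Pdk3, a kinase that switches this enzyme off, gave -1.02 ± 0.37 (SE), and its 3 probes ran from -1.02 to 0.26.

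Pfkfb3, which makes the activator of phosphofructokinase, gave 0.99 ± 0.36 (SE) on one probe, which was 0.63 without summer animal 2, and -1.08 on the other. Pck1, the gluconeogenic and glyceroneogenic carboxykinase, gave 1.0 ± 0.42 (SE). It was 0.49 without summer animal 2, 1.52 without summer animal 1 and 0.55 after cyclic loess scaling. Pgm1, a phosphoglucomutase, gave -0.65 ± 0.22 (SE) on a dim probe (signal percentile 19.0). Its 3 probes ran from -0.65 to -0.04, and the brightest gave -0.30 ± 0.41 (SE). Among other isoforms at the members' steps, the 5 Aldoc probes ran from -0.60 to 0.45 and the 5 Eno2 probes from -0.58 to 0.68. Hk1, a hexokinase, gave 0.20 ± 0.22 (SE). Pkm, the pyruvate kinase of muscle and most other tissues, ran from -0.89 to 0.38 over 4 probes. The lowest of these was a dim probe with values in only 3 torpid animals, 0.210, 0.243 and 0.211 times the median, against 0.656, 0.391 and 0.264 in summer animals. That Pkm difference was -0.54 without summer animal 1 and -0.18 with a floor on low values.

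The probes most like the members over the 8 animals, by Pearson correlation within a membrane, are given as a description, since each search covered many probes and the 2 groups shape the coefficient. Ldha was most like Ap3s1 (r = 0.99), Psma2 (r = 0.98) and Sucla2 (r = 0.97), among 5816 singly named probes. Ldhb was most like Psmc5 (r = 0.98), Atp5b (r = 0.97) and Bicd2 (r = 0.965). Aldoa was most like Rpl9 (r = 0.97), Gja1 (r = 0.96) and Malat1 (r = 0.96) among 5167 probes of MA10. Eno3 was most like Fbxl17 (r = 0.98), Asrgl1 (r = 0.97) and U2af2 (r = 0.96) among 6523 probes of MA08. Over probes with values in all 8 animals, pairs of animals correlated between 0.764 and 0.948 within a membrane. Summer animals 2 and 3 had the lowest median r with the other animals, averaged over membranes. A summer animal has fewer others of its own group to be compared with than a torpid one, which can lower this median.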

How the data were processed

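The authors deposited linear spot intensity values of 44 columns (24 of torpid and 20 of summer animals), scaled so that each column's median is 1 with empty cells ranked lowest, as the deposited values show. How images were read, how background was handled and why 1.30% to 6.38% of a membrane's cells are empty is not given in the sources used here. Intensities were taken to log2 with empty cells as missing, and paired measurements of 1 RNA were averaged. Separate limma fits (version 3.58.1, R 4.3.3, lmFit and eBayes, two-sided) were made per membrane, using probes measured in 2 or more animals per group. P-values were Benjamini-Hochberg adjusted across the 37848 tested probes, with a threshold of 0.05. Tested on simulated data with independent noise, the fit recovered most of the large changes and none of the smallest ones simulated. Those smallest changes were close in size to the Ldha and Gapdh differences and to that of Pgk1 on MA11. Symbols are those of the supplied mouse platform annotation; all 8 member symbols also occur among the squirrel's RefSeq genes. Precision is limited by the small number of animals, 5 torpid and 3 summer. The labels name the animals but give no batch. Alternatives covered scaling, a floor, filters, single measurements of a pair, weights, blocks and leaving out each animal.

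The members, lists and tests were chosen with earlier results of these data known. Named genes were all members, the 8 genes of the wider list with the smallest p, the related genes Aldoc, Eno2, Hk1 and Pkm, and the 3 probes most correlated with the brightest Ldha, Ldhb, Aldoa and Eno3 probe. Marker genes named beside these are all measured brown and white fat markers, and muscle markers chosen after their values were seen. Agt and Psat1 were also singled out after their values were seen. A planned contrast of Eno3 with Eno1 was not run, since Eno1 was not measured by a singly named probe. Animal numbers of the 2 groups name different animals.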

Additional observations from a re-analysis of the deposited data

Results flagged for a closer look

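In 2 of the 15 probes, 1 torpid animal stood apart from the other 4 by Dixon's criterion, and both probes are on MA10 and both animals are torpid animal 1. The Aldoa probe 4266 was at 0.0881 times the column median in that animal, against 0.544 to 0.799 in the other 4 torpid animals. The Tpi1 probe 7761 was at 0.972 in that animal, against 0.464 to 0.555. Chance alone gives such a gap in about 1 of 20 groups. Neither probe had an unadjusted p under 0.05 in the comparison of torpor with summer.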

How the results depend on the processing

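Over 21 alternative settings, the 4 positive and 2 negative probes with an unadjusted p under 0.05 kept their signs, with an unadjusted p under 0.05 throughout except for Gapdh without summer animal 2 (p = 0.0517). Sizes moved far in Aldoa probe 4266 (-1.21 to -0.19), Pgk1 probe 1687 (0.027 to 0.83) and Tpi1 probe 3454 (0.14 to 2.35), with no change of sign. Tpi1 probe 3454 had an unadjusted p under 0.05 in 8 settings, among them the replicate block (p = 0.0051), which made 5 higher probes. The count past an adjusted p of 0.05 by limma was 0 to 1 with 1 animal left out (Aldoa without summer animal 1, Ldhb without summer animal 3), 1 with the animal as a random block over all columns (Pgk1) and 0 otherwise. The Ldhb minus Ldha contrast was -0.20 with cyclic loess, -0.14 with first measurements only and -0.32 to 0.35 with 1 animal left out. Sign changes occurred in 6 member probes, none with an unadjusted p under 0.05, and their cause was not tested. Eno3 probe 9001 gave -0.017 (quantile), -0.0096 (floor), -0.14 (second measurements), -0.022 (array weights), -0.19 (random block) and -0.22 to 0.60 with 1 animal left out. Pgam1 gave 0.0022 (quantile), 0.0062 (cyclic loess), 0.088 (second measurements), 0.014 (array weights), 0.033 (random block) and -0.29 to 0.21 with 1 animal left out. Ldhb probe 34 gave -0.058 with first measurements and -0.0021 to 0.54 with 1 animal left out. With 1 animal left out, Aldoa probe 4342 gave -0.71 to 0.25, Pgk1 probe 4260 -0.18 to 0.37 and Tpi1 probe 7761 -0.54 to 0.19. With the replicate number as a block, 0 member probes passed, Tpi1 probe 7761 gave 0.060 and the Ldhb minus Ldha contrast was 0.16. The labels give same-numbered animals only a number in common. Deviations of such animals correlated at 0.0047 to 0.0094 as means over the 4 membranes, and at -0.063 to 0.052 within single membranes. Whether these animals shared any handling was not tested. Spots near the low end, where empty cells lie, limit Eno3 probe 9001.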
